A study of Mus musculus with 11 samples.

Results

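The genes described here are 10 that mark macrophages and microglia, the resident phagocytes of the eye: Aif1, Cd68, Csf1r, Cx3cr1, Emr1 (the older symbol of Adgre1), Ptprc, Tyrobp, Cd14, Mrc1 and Lyz2. They were chosen by name, and all 10 had a row among the 14602 genes of the count table. RNA of the retinal pigment epithelium (RPE) with the underlying choroid was sequenced in bulk from C57BL/6J mice with no genetic change named in the labels. The 6 naïve control mice were left without laser and were taken at 12 months of age. The 5 laser treated mice of the same strain received spots of a 2RT nanosecond laser in 1 eye at 9 months of age and were also taken at 12 months. Per the study's methods the neural retina was removed and the spots lay in the central retina, so that the lysate of each eye cup held treated and untreated tissue. In such bulk RNA, fewer cells of a type and less RNA per cell cannot be told apart.

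Macrophages live in the choroid, the vascular layer under the RPE, and microglia are their counterparts in the neural retina, from which some can move to the subretinal side of the RPE. Both depend on signalling through the receptor CSF1R, whose ligands are CSF1 and IL-34, and microglia carry CX3CR1, the receptor of fractalkine (CX3CL1), which neurons make. These cells clear debris through lysosomes, and CD68 and lysozyme are among the products that mark that work.

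Lyz2 is the lysozyme gene of mouse macrophages, and Lyz1, its neighbour from a gene duplication, is the form of the Paneth cells of the gut. The pair is shown first because reads of one can resemble the other. The coding sequences of both had 447 bases, differed at 22 of them, were 95.1% identical and shared an unbroken stretch of 118 bases. Bases 43 to 132 of the coding sequence, counted from the A of the start codon, held 13 of the differences, which are in capitals (GENCODE M21 on GRCm38, 5′ to 3′).
Lyz2: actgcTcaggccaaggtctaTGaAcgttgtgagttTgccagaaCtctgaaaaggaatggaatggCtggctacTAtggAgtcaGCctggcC
Lyz1: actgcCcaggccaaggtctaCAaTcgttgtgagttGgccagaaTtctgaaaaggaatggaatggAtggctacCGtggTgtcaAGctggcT
Of the counts given to either gene, Lyz1 held a median of 0.53% over the 11 libraries, with a lowest share of 0.28% and a highest of 1.48%. Lyz1 itself lay between 0.37 and 5.24 CPM, a count scaled to library size, so Lyz2 values are nearly the whole lysozyme signal of these libraries, while Lyz1 values are uncertain.

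A short DNA core read by PU.1, the transcription factor of the myeloid lineage, was looked for in the promoters of the genes. RefSeq windows on GRCm38.p6 ran from 250 bases before to 50 after a start of transcription. They were examined for 6 of the 10 genes, Aif1, Cd68, Cx3cr1, Lyz2, Mrc1 and Ptprc (7 windows, since Ptprc has a pair of starts). Windows of the other genes were left out, so the counts of matches do not cover the whole set. GAGGAA, on either strand, was present in 4 of the 7 windows and in 28.3% of all 32851 windows of that length. The longer form GAGGAAGT, which contains the first, was present in none of them and in 3.2% of all windows. The windows of Mrc1 and Cd68 are shown because, of the 7 examined, they held the most matches, 3 and 2. Mrc1 lies at chr2:14229164-14229463 on the plus strand and Cd68 at chr11:69666121-69666420 on the minus strand. Each is written 5′ to 3′ in the direction of the gene, and capitals mark GAGGAA or its reverse complement TTCCTC.
Mrc1: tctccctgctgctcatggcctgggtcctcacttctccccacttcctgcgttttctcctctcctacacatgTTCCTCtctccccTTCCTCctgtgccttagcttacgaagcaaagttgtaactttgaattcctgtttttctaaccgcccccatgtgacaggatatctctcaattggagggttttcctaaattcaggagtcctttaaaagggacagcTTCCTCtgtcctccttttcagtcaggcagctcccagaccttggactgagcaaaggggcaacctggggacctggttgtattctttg
Cd68: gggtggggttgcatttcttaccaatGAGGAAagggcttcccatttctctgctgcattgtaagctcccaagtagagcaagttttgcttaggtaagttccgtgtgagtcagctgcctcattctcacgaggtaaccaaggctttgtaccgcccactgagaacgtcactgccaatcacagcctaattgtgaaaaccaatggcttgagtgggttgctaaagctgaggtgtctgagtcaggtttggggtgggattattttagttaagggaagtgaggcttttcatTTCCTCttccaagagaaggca
A match of letters is a description of the window and was not tested against binding.

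The libraries held between 25700881 and 38755994 counts, and the values below are CPM, read counts divided by the library total after TMM normalisation and scaled to a common size. RPE markers were high in every library, with Rpe65 at 12600 CPM ± 1940 (SD, n = 6) among the controls and 11100 ± 3100 (SD, n = 5) after laser. Best1, another RPE marker on the list, was near 0 (1.2 and 0.706 CPM on average, and 0 counts in 3 libraries). RNA of the neural retina was present in spite of the dissection, with the summed level of 10 photoreceptor genes between 6080 and 21900 CPM in naïve control and between 4060 and 19400 CPM in laser treated libraries. The summed level of the 10 macrophage and microglia genes ranged from 292 to 978 CPM in naïve control libraries and from 430 to 994 CPM in laser treated libraries, overlapping over most of both ranges. Lyz2 (308 CPM on average) and Csf1r (291 CPM) made up most of that sum, so it says little of the other genes.

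Levels of different genes were compared per kb of the longest coding transcript. On that scale the genes spanned nearly 3 orders of magnitude. Lyz2 was highest at 234 CPM per kb ± 127 (SD, n = 11), followed by Csf1r at 61.8 ± 15.1, Tyrobp at 25.2 ± 12.4, Cd68 at 14.2 ± 5.59, Aif1 at 3.16 ± 1.64 and Cd14 at 1.62 ± 0.822. Emr1 (0.907 ± 0.706), Cx3cr1 (0.509 ± 0.32), Ptprc (0.39 ± 0.248) and Mrc1 (0.252 ± 0.305) were at the bottom. The order of Lyz2 over Csf1r, Csf1r over Tyrobp and Cd68 over Aif1 held in 11 of 11 libraries, and Tyrobp over Cd68 and Aif1 over Cd14 in 10 of 11. From Cd14 downwards each gene was above the next in 7 of 11 libraries, and these neighbours did not separate beyond their spread. Ptprc, the gene of the pan-leukocyte antigen CD45, and Mrc1, the mannose receptor of many tissue macrophages, had the lowest mean RNA per length of the set. They were not set apart from the genes next to them, while Csf1r and Lyz2 were prominent.

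**Figure D1:**
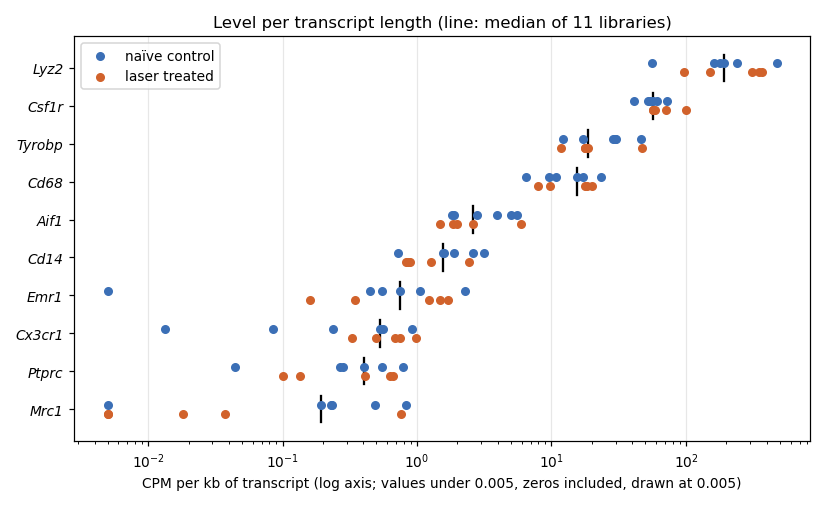
Level of each gene in CPM per kb of transcript on a log axis, 1 point per library (naïve control above, laser treated below the row's centre), with a line at the median of the 11 libraries. Lyz2 and Csf1r lie above all other genes in every library, while the last 4 genes overlap one another.

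Across all genes, the comparison of laser treated with naïve control libraries by edgeR's quasi-likelihood test gave 0 genes at an adjusted p under 0.05 (0% of 14602 tested, smallest adjusted p 0.061), with 2325 at an unadjusted p under 0.05. DESeq2 gave 502 genes at an adjusted p under 0.05 and limma voom gave 1. None was among the 10, but DESeq2 gave no adjusted p for 6 of them (Aif1, Cx3cr1, Emr1, Ptprc, Cd14 and Mrc1), which could not be called there. Of the 10 genes, 0 passed the adjusted threshold and 0 had an unadjusted p under 0.05, beside 15.9% of all genes tested. The groups overlapped in CPM for all 10, and failed to overlap for 2.26% of all genes. The log2 fold change was above 0 for 5 and below 0 for 5, with a median of 0.046 beside -0.019 over all genes. The intervals of the differences were wide for most of the set, so that these tests leave changes of the size given below undetected rather than absent.

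**Figure D2:**
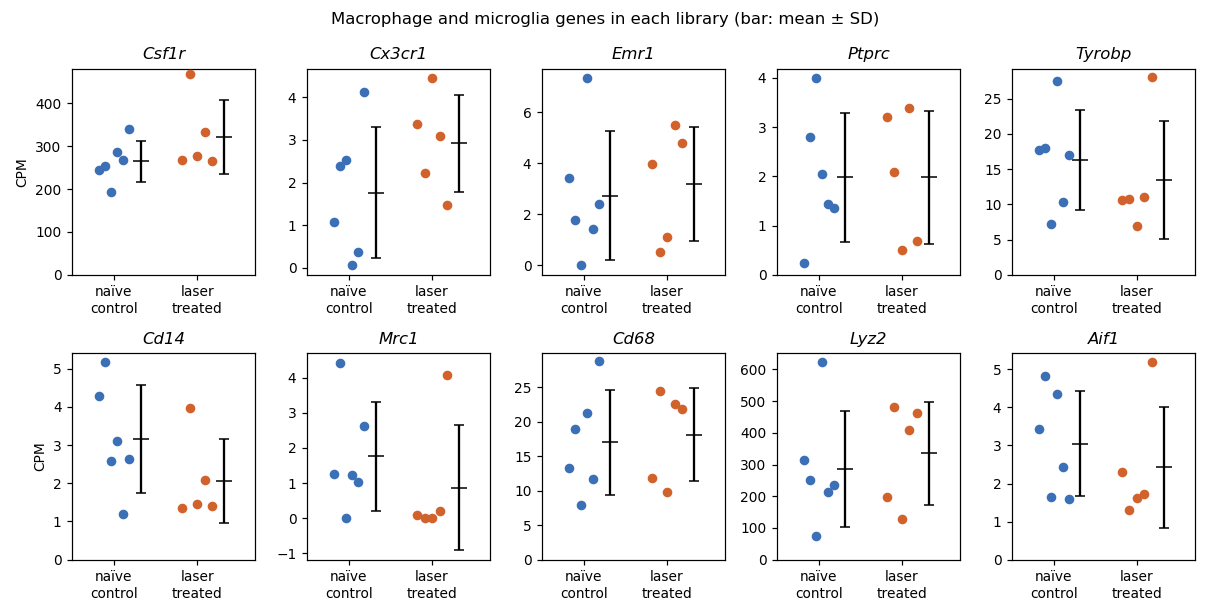
CPM of the 10 genes on linear axes, 1 point per library, with the mean and SD of the 6 naïve control and 5 laser treated libraries beside them (the lower SD bar of Mrc1 and laser treated passes below 0). In every panel the groups overlap, and single libraries stand high for Tyrobp, Aif1, Mrc1 and Cd14 among the laser treated ones.

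Csf1r encodes the receptor tyrosine kinase on which macrophages and microglia depend for survival. Its level ran from 192.62 through a median of 261.47 to 339.57 CPM in naïve control libraries, and was 267.60, 467.68, 277.58, 332.36 and 265.41 CPM in laser treated libraries 1 to 5. All 5 laser treated libraries were above the naïve control median, with library 2 far above the other 4, and 3 of the 5 lay inside a narrow band just over that median. Its log2 fold change was 0.28 (SE 0.17, 95% interval -0.09 to 0.66, edgeR adjusted p = 0.462). It was the steadiest gene of the set, with a coefficient of variation of 24.4% over the 11 libraries, and the interval on the linear scale ran from 0.94-fold to 1.58-fold. Without laser treated library 2 the log2 fold change was 0.11.

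The Csf1r gene lies on chromosome 18 from 61100598 to 61132149 on the plus strand (GRCm38). The last 873 bases of its final exon, from 61131277, overlap an exon of Hmgxb3 on the opposite strand, which is 15.1% of its exon bases. The sources used here do not say that counting used strand, so reads in that stretch cannot be given to one gene with certainty. Hmgxb3 had a median of 17.23 CPM in naïve control and 25.31 CPM in laser treated libraries (log2 fold change 0.62, SE 0.3, edgeR adjusted p = 0.33), well under Csf1r. In the authors' transcript files the exons of Csf1r at 61109616 to 61109875 and 61110221 to 61110505, which no other gene of the annotation shares, were covered (by a fragment with at least 50% of its length in the exon) in 11 of 11 libraries, with median coverages of 184.3 and 200.1 beside 458.5 for the final exon. Of the other exons of at least 250 bases, the one at 61105572 to 61105998 was covered in 8 libraries, the one at 61100598 to 61101011 in 5 and the one at 61120548 to 61120891 in 0. Coverage outside the shared stretch was thus present in every library but uneven along the gene.

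Cx3cr1, the fractalkine receptor, was measured on few counts, from 2 to 156 per library. It ran from 0.06 through 1.73 to 4.11 CPM in naïve control libraries, and was 3.37, 2.23, 4.45, 3.09 and 1.47 CPM in laser treated libraries. The naïve control libraries 4 and 5 were the lowest of all, 4 of 5 laser treated libraries were above the naïve control median, and the groups overlapped. The fitted difference (log2 fold change) was 0.73 (SE 0.8, 95% interval -0.99 to 2.46, edgeR adjusted p = 0.732). With limma voom the log2 fold change was 1.92 (limma adjusted p = 0.232), with an unadjusted p under 0.05.

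Emr1 encodes F4/80, the classic surface antigen of mouse macrophages. It ran from 0 through 2.10 to 7.34 CPM in naïve control libraries, and was 3.98, 0.52, 1.11, 5.50 and 4.78 CPM in laser treated libraries. The naïve control group held both the lowest library, with 0 counts, and the highest, and the laser treated values fell into 3 high and 2 low ones. Laser treated over naïve control, the log2 fold change was 0.22 (SE 0.96, 95% interval -1.84 to 2.27, edgeR adjusted p = 0.946). Ptprc, carried by all white blood cells, ran from 0.23 through 1.74 to 4.00 CPM in naïve control libraries, and was 3.21, 2.09, 0.51, 3.38 and 0.69 CPM in laser treated libraries. Its group means were both 1.98 CPM, the spread within either group covered the other, and the log2 fold change was -0.0003 (SE 0.76, 95% interval -1.63 to 1.63, edgeR adjusted p = 1.0). That interval spans 0.324-fold to 3.09-fold, so equal means on these counts did not show equal levels.

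Tyrobp encodes DAP12, the adaptor that passes on signals of TREM2 and related receptors. It ran from 7.20 through 17.43 to 27.58 CPM in naïve control libraries, and was 10.59, 10.71, 6.96, 11.09 and 28.13 CPM in laser treated libraries. Libraries 1 to 4 of the laser treated group lay below the naïve control median, and library 5 was the highest of all 11. The log2 fold change was -0.28 (SE 0.39, 95% interval -1.11 to 0.56, edgeR adjusted p = 0.808), and it was -0.73 without laser treated library 5.

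Cd14 encodes the co-receptor that hands bacterial lipopolysaccharide to TLR4. It ran from 1.19 through 2.86 to 5.19 CPM in naïve control libraries, and was 1.36, 3.97, 1.46, 2.09 and 1.41 CPM in laser treated libraries. Laser treated library 2 stood above the other 4, all of which were under the naïve control median. Its log2 fold change was -0.62 (SE 0.54, 95% interval -1.77 to 0.53, edgeR adjusted p = 0.637). It was -1.0 without laser treated library 2.

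Mrc1, the mannose receptor CD206, was the sparsest gene, with 0 counts in 3 libraries and under 10 in 5. It ran from 0 through 1.24 to 4.42 CPM in naïve control libraries, and was 0.10, 0, 0, 0.20 and 4.06 CPM in laser treated libraries. All laser treated libraries but library 5 were at or near 0, whereas 5 of 6 naïve control libraries were above 1 CPM. The fitted difference (log2 fold change) was -1.01 with an SE of 1.5 (95% interval -4.23 to 2.21, edgeR adjusted p = 0.819). Without laser treated library 5 it was -4.5 (SE 1.6, edgeR adjusted p = 0.179), with an unadjusted p under 0.05, so 1 library set the size of this value, and a fitted fold of a gene at 0 depends on the prior count. In laser treated library 5, Aif1 and Tyrobp were also the highest of the group, as were the summed levels of mast cell genes (14.2 CPM, beside 1.37 to 4.01 in the other 4) and red blood cell genes (159 CPM, beside 37.2 to 71.62). In naïve control libraries the mast cell sum ran from 2.09 to 12.4 CPM. The red blood cell sum ran there from 48.1 to 326 CPM, a range that holds the value of laser treated library 5. The part that choroidal blood or other cells of that sample had in the Mrc1, Aif1 and Tyrobp values was not tested.

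Cd68 encodes a glycoprotein of the lysosomal membrane. It ran from 7.95 through 16.14 to 28.89 CPM in naïve control libraries, and was 11.91, 24.46, 9.79, 22.55 and 21.94 CPM in laser treated libraries. Both groups held low and high libraries across the same range, and the log2 fold change was 0.09 (SE 0.34, 95% interval -0.64 to 0.82, edgeR adjusted p = 0.934). Lyz2 ran from 73.12 through 244.39 to 622.87 CPM in naïve control libraries, and was 198.37, 480.86, 126.82, 408.96 and 461.76 CPM in laser treated libraries. The lowest and the highest library both belonged to the naïve control group, and they differed 8.52-fold. Laser treated over naïve control, the log2 fold change was 0.23 (SE 0.46, 95% interval -0.77 to 1.24, edgeR adjusted p = 0.873), and it ran from 0.02 without naïve control library 3 to 0.61 without naïve control library 4.

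Lyz2 varied more between libraries than most genes of its level. Its biological coefficient of variation in the edgeR fit was 0.529, beside a trend of 0.261 at its level, and it was above that of 98.8% of the 433 genes within 0.5 log2 units of its mean. Csf1r, of much the same level, had 0.231, beside a trend of 0.26. That was above the value of 77.5% of the 387 genes within 0.5 log2 units of its own mean. Csf1r thus also varied more than most genes of its level, though less than Lyz2. The 2264 to 20713 counts per library behind Lyz2 make counting error small for it.

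Aif1 encodes IBA1, the calcium-binding protein by which microglia and macrophages are commonly stained. It ran from 1.60 through 2.93 to 4.83 CPM in naïve control libraries, and was 2.30, 1.30, 1.63, 1.72 and 5.20 CPM in laser treated libraries. Laser treated libraries 1 to 4 were below the naïve control median and library 5 was the highest of all 11, the pattern also seen in Tyrobp. The log2 fold change was -0.33 (SE 0.54, 95% interval -1.5 to 0.84, edgeR adjusted p = 0.842), and -0.81 without laser treated library 5.

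**Figure D3:**
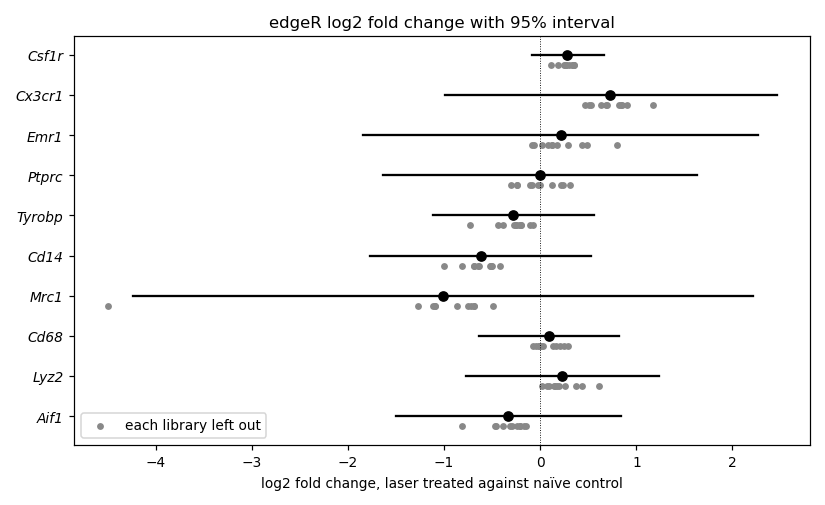
Log2 fold change (laser treated over naïve control) of each gene with a line for its 95% interval, and grey points for the fits that omit 1 of the 11 libraries. All 10 intervals include 0, that of Csf1r is the narrowest (-0.09 to 0.66), and the grey point of Mrc1 at -4.5 is the fit without laser treated library 5.

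An exact two-sided permutation test of mean log2 CPM (462 possible arrangements, of which the smallest p is 0.00216) gave p between 0.147 (Mrc1) and 0.978 (Ptprc). The headers of the authors' transcript files carry a label, R1 for naïve control libraries 1 to 3 and laser treated libraries 1 and 2, and R2 for the other 6, whose meaning the sources used here do not give. Within R1 and R2, the difference in mean log2 CPM was 0.63 and -0.03 for Csf1r, 0.78 and -0.13 for Lyz2, 0.44 and -0.19 for Cd68, and 0.83 and -0.53 for Ptprc, so the direction of these 4 genes depended on the label. It kept its sign in both for the other 6, namely Cx3cr1 (0.54 and 2.21), Emr1 (1.07 and 0.07), Tyrobp (-0.31 and -0.39), Cd14 (-0.72 and -0.38), Mrc1 (-2.86 and -1.96) and Aif1 (-0.78 and -0.07). With 2 or 3 libraries of a group under a label, these values carry no test.

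Some libraries were low in several of the genes at once. Naïve control library 3 was among the lowest 3 of the 11 libraries for 6 of the 10 genes, and laser treated library 3 for 7. For the remaining libraries this number lay between 0 and 4, and none of these numbers was tested against chance. At the other end, laser treated library 5 was among the highest 3 for 5 genes, and naïve control libraries 2, 4 and 6 and laser treated libraries 2 and 4 for 4 each. High and low libraries were thus found in both groups.

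The genes were then compared in pairs over the 11 libraries, a step added after the data were seen. Of the 45 pairs, 30 had a Pearson's r above 0, with a median of 0.15 and a range from -0.52 to 0.84, and 0 had an adjusted permutation p under 0.05. The closest pair was Tyrobp with Mrc1 (r = 0.84, permutation p = 0.00198, adjusted p = 0.0655, Spearman's rho 0.83 with permutation p = 0.00304 and adjusted p = 0.137), with r = 0.87 without the 2 farthest libraries, and 0.91 and 0.83 within R1 and R2. In each pair, the farthest libraries were those farthest from the median of the gene named first. The 3 libraries with 0 counts of Mrc1 therefore stayed in, and their part in this r was not tested. Cd68 with Lyz2 came next (r = 0.8, permutation p = 0.00291, adjusted p = 0.0655, rho 0.73 with permutation p = 0.0146 and adjusted p = 0.181), and its r was 0.53 without the 2 farthest libraries, and 0.9 and 0.67 within the labels. Aif1 with Tyrobp followed (r = 0.79, permutation p = 0.00493, adjusted p = 0.074, rho 0.67 with permutation p = 0.0281 and adjusted p = 0.181), with 0.71 without the 2 farthest libraries, and 0.83 and 0.81 within the labels. Cx3cr1 had negative r with Aif1 (-0.52), Tyrobp (-0.51) and Lyz2 (-0.47), on its few counts. All pairs share the depth and normalisation of the same libraries.

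**Figure D4:**
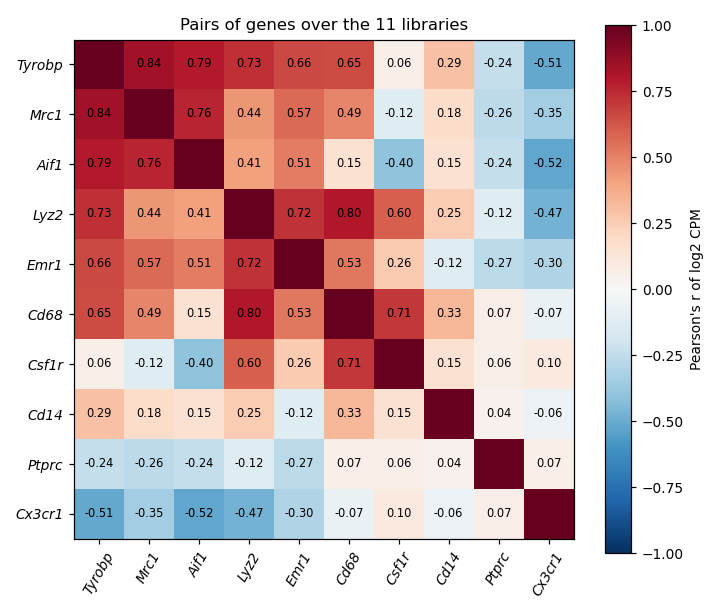
Pearson's r of log2 CPM for each pair of the 10 genes over the 11 libraries, from -1 (blue) to 1 (red), with the value in each cell. Tyrobp, Mrc1, Aif1, Lyz2, Emr1 and Cd68 form a block of positive values, up to 0.84 for Tyrobp with Mrc1, while Cx3cr1 and Ptprc lie near or below 0 with that block.

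For each gene, those most like it over the 11 libraries were taken from the 13702 genes compared, by Pearson's r of log2 CPM after each group's mean was subtracted. The closest to Tyrobp was Ctsh, a lysosomal protease (r = 0.962), which also came second for Mrc1 (0.893), and Crip1 was among the 3 closest to both Tyrobp (0.927) and Aif1 (0.913). The 3 genes closest to Csf1r were Eif2ak1 (0.973), Dnajb2 (0.97) and Lrp10 (0.96), and none of them is a marker of macrophages. For Lyz2 they were Ace (0.952), Serpinf1 (0.949) and Hmha1 (0.939), and for Cd68 they were Spns2 (0.969), Fgfr3 (0.934) and Rcn3 (0.929). The first for each of the other genes were Klf6 for Aif1 (0.918), Pus7l for Cx3cr1 (0.967), Abca2 for Emr1 (0.916), Zfp511 for Ptprc (0.952), Robo4 for Cd14 (0.938) and Phlda1 for Mrc1 (0.915). With 11 libraries and 13702 genes, high values of r come easily, and they are given as a description.

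The ligands and partners of these receptors were read from the same fit. Of 13 listed, 11 were measured, and Trem1 and Clec5a were not found by symbol among the 14602 genes. At an unadjusted p under 0.05, 2 were higher and 0 lower in laser treated libraries, a share near the 15.9% of all genes, 0 passed the adjusted threshold, and the median log2 fold change was -0.01. Il34, the CSF1R ligand made by neurons and epithelia, was at 1.77 CPM ± 0.834 (SD, n = 6) among the controls and 4.24 ± 1.65 (SD, n = 5) after laser, with a range of 1.01 to 3.09 against 2.07 to 5.83. Its log2 fold change was 1.26 (SE 0.5, 95% interval 0.18 to 2.34, edgeR adjusted p = 0.249). Cx3cl1, the ligand of CX3CR1, was at 33.1 ± 6.72 and 48.9 ± 15.2 CPM, with a log2 fold change of 0.56 (SE 0.21, 95% interval 0.1 to 1.02, edgeR adjusted p = 0.233). The groups overlapped for both ligands, and neither passed the adjusted threshold. Of the 11, 3 were past the unadjusted threshold with DESeq2, 0 with a GC trend removed, and 1 with the replicate number as a block.

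Csf1, the other CSF1R ligand, had 5.98 ± 1.96 and 5.94 ± 0.79 CPM (log2 fold change -0.01, 95% interval -0.74 to 0.73; Csf1 and Trem2 were chosen after their values were seen). Of the TYROBP partners, Trem2 had 6.99 ± 2.95 and 5.21 ± 2.19 CPM (log2 fold change -0.42, 95% interval -1.27 to 0.42). Fcer1g, the adaptor of Fc receptors, had 16.2 ± 6.76 and 13.7 ± 8.66 CPM, close to Tyrobp in both groups. Around CD14, Ly96 (the MD-2 subunit of the TLR4 complex) had 12.8 ± 6.87 and 7.07 ± 3.62 CPM (log2 fold change -0.85, edgeR adjusted p = 0.333), Lbp 7.89 ± 3.82 and 11.0 ± 7.51, and Myd88, which relays Toll-like receptor signals, 10.9 ± 4.26 and 14.0 ± 4.11.

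None of the relatives of the genes by family (10 of 13 measured, median log2 fold change 0.29) had an unadjusted p under 0.05. Nor had any of the microglial genes (9 of 10 measured, median 0.06). The same held for other macrophage and monocyte genes (21 of 25 measured, median 0.47) and genes of activation (13 of 20 measured, median 0.08). Of all genes tested, 15.9% were past that threshold in this fit. Of the 21, 1 was past it with DESeq2, 1 with the replicate number as a block and 1 with a GC trend removed. Of the 13, 1 was past it with the block and 1 with the GC trend removed. Lamp1 and Lamp2, lysosomal membrane proteins of the family of CD68 that most cells make, had 403 ± 43.6 and 411 ± 43.8 CPM and 805 ± 165 and 733 ± 122 CPM. Of the microglial genes, Olfml3 had 8.89 ± 4.19 and 13.7 ± 4.07 CPM, Tmem119 4.86 ± 3.22 and 5.98 ± 1.84, and Gpr34 5.43 ± 5.72 and 4.43 ± 3.85. P2ry12, a defining receptor of microglia chosen here after its values were seen, had 0 counts in 3 of the 11 libraries. Among other macrophage genes, Ctss, a lysosomal protease, had 145 ± 77.1 and 126 ± 52.4 CPM, and Laptm5, a lysosomal protein of blood cells, 12.1 ± 4.98 and 19.1 ± 6.41 (log2 fold change 0.66, edgeR adjusted p = 0.361). Ms4a7 had 11.1 ± 7.98 and 10.0 ± 6.82 CPM, and Cd53 5.66 ± 5.7 and 10.6 ± 5.91. The activation list was dominated by genes that other cells of the tissue also make, Apoe (6420 ± 1350 and 7890 ± 1280 CPM), Gpnmb (402 ± 251 and 497 ± 275), Cd9 (86.9 ± 14.8 and 99.7 ± 13.9) and Spp1 (95.2 ± 35.5 and 71.6 ± 17.1). Tnf, Il6, Ccl2, Ccl3, Ccl4, Nos2 and Chil3 were not found by symbol among the 14602 genes.

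Other cell types of the tissue were read by their markers. Of the genes of T, B and NK cells 2 of 11 were measured (Nkg7 and Gzma, summed level 0.713 to 2.6 CPM over the libraries), of neutrophils 3 of 9 (1.75 to 36.3 CPM) and of mast cells 4 of 6 (1.37 to 14.2 CPM), with 0 at an unadjusted p under 0.05. With DESeq2, 1 neutrophil gene was past that threshold. All 4 measured red blood cell genes had log2 fold changes below 0 (median -0.91), and 1 was past that threshold, Hbb-b1 (-1.34, SE 0.52, edgeR adjusted p = 0.241), beside 15.9% of all genes. With DESeq2, and also with a GC trend removed, 3 of the 4 were past it. None of the 10 RPE, 10 neural retina, 6 fibroblast or 6 endothelial markers had an unadjusted p under 0.05. With the replicate number as a block, 1 RPE, 2 neural retina and 1 endothelial markers were past it. The 4 melanocyte markers are shared with the RPE, so they do not single out melanocytes. Of these, Mitf was lower at an unadjusted p under 0.05 (log2 fold change -0.49, edgeR adjusted p = 0.22). Tyr (-0.16), Tyrp1 (0.11) and Dct (-0.09) were not past it. With a GC trend removed, 0 of the 4 were. Of the Schwann cell markers, Mbp (2.22) and Sox10 (0.62) had log2 fold changes above 0 and an unadjusted p under 0.05 (edgeR adjusted p = 0.208 and 0.172). The part of these cell types in the values of the 10 genes was not tested.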

How the data were processed

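RNA was measured in RPE/choroid of 6 naïve control and 5 laser treated mice, grouped by the labels. The authors deposited raw counts per gene for each library, without normalisation, and beside them their own log2 fold changes, p-values and adjusted p-values, which were not used. They also deposited transcripts per library (StringTie), each of 1 exon, with coverage, FPKM and TPM. The submitters' processing notes name bcl2fastq 2.18.0.12, Trim Galore, STAR 2.5.3a, featureCounts 1.5.3, StringTie 1.3.3, edgeR 3.22.3 and the builds mm10 and GRCm38. The RNA was pre-amplified with a SmartSeq v4 kit, which can raise the spread of genes with few counts.

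Counts (25700881 to 38755994 per library) were fitted with edgeR 4.0.16 in R 4.3.3: TMM, filterByExpr (0 genes removed), robust quasi-likelihood test and Benjamini-Hochberg adjustment over 14602 genes. The common biological coefficient of variation was 0.58. log2 CPM used a prior count of 2. Of all genes, 13045 were placed in GENCODE M21 (GRCm38) by identifier, 1215 by an older symbol, 10 by symbol, and 332 were not matched. For the alternatives, TPM were summed per gene and tested by limma 3.58.1 on log2(TPM + 1), and DESeq2 1.42.0 was run. Scripts were tested on simulated data. Correlations used 100000 permutations, adjusted over 45 pairs.

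The 10 genes and the other lists were chosen with earlier results of these data known. All 10 are named. From the lists, genes with an unadjusted p under 0.05 and up to 4 others with the highest mean CPM are named, and 3 genes per member for likeness. Some listed genes are not reported here. Labels say nothing of litters or days, and the replicate numbers were not treated as pairs. If libraries are not separate animals, p-values measure only the spread between them.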

Additional observations from a re-analysis of the deposited data

Results flagged for a closer look

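In groups of 4 to 10 libraries, the highest or lowest was compared with the others by Dixon's criterion, which chance alone passes in about 5% of groups. Of 50 groups of values examined, 8 passed. Among the laser treated libraries, library 5 was far above the other 4 for Aif1 (5.2 CPM, others 1.3 to 2.3), Tyrobp (28.1 CPM, others 6.96 to 11.09) and Mrc1 (4.06 CPM, others 0 to 0.2). Within that group the same library was highest for the summed mast cell genes (14.2 CPM, others 1.37 to 4.01) and red blood cell genes (159 CPM, others 37.2 to 71.62). Naïve control libraries ran from 2.09 to 12.4 CPM and from 48.1 to 326 CPM for these sums, so 159 CPM lay inside the naïve control range. Laser treated library 2 was highest for Cd14 (3.97 CPM, others 1.36 to 2.09). Among the naïve control libraries, library 6 was highest for the summed neutrophil genes (36.3 CPM, others 2.03 to 12.45) and library 4 for the summed melanocyte markers (2590 CPM, others 1160 to 1630).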

How the results depend on the processing

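Over 26 other settings, which left out libraries or changed the normalisation, filter, test, covariates or values, 256 fold changes of the 10 genes were computed. Of the 220 with an adjusted p, none was under 0.05, the smallest being 0.179. The other 36 had none (exact permutation and within-label values, and 6 genes in DESeq2). Of the 256, 25 had the opposite direction. Over all genes, the count at an adjusted p under 0.05 was 502 with DESeq2, 2 with at least 10 counts in every library (11901 genes, without Cx3cr1, Emr1, Ptprc and Mrc1), 1 with limma voom, 2 with log2(TPM + 1), 2 with log2(TPM + 0.1), and 0 to 4 with a library left out (4 without laser treated library 2). Removing a GC trend left 1071 genes at an unadjusted p under 0.05, in place of 2325. Members at an unadjusted p under 0.05 were 1 with limma voom (Cx3cr1) and 0 to 1 with a library left out (Mrc1, without laser treated library 5), and their median log2 fold change then ran from -0.153 to 0.246.

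Directions turned for Ptprc with upper quartile normalisation (0.01), the label R1 or R2 as a covariate (0.04), the GC trend removed (0.34) and that with the replicate block (0.21), mean log2 CPM (0.03), and within R1 (0.83). They turned for Aif1 with log2(TPM + 1) (1.01) and log2(TPM + 0.1) (2.32), where it was at 0 in most libraries, for Cd68 in the same settings (-0.29 and -0.3), with the GC trend removed (-0.01) and within R2 (-0.19), for Emr1 with log2(TPM + 1) (-0.02), and within R2 for Csf1r (-0.03) and Lyz2 (-0.13). With a library left out, Ptprc ran from -0.3 to 0.31, Cd68 from -0.07 to 0.29 and Emr1 from -0.08 to 0.8. Without a change of direction, Csf1r ran from 0.11 to 0.35, Cx3cr1 from 0.47 to 1.17, Tyrobp from -0.73 to -0.07, Cd14 from -1.0 to -0.42, Mrc1 from -4.5 to -0.49, Lyz2 from 0.02 to 0.61 and Aif1 from -0.81 to -0.15. The cause was not tested.

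With the replicate number as a replicate block, the 10 genes had a median log2 fold change of 0.088, and 0 genes of the table had an adjusted p under 0.05. Libraries with the same number had correlations of deviations of -0.009, 0.115, 0.28, -0.009 and -0.008. Libraries with different numbers were not compared in this way, so whether the number marks a pairing was not tested. Mrc1, Ptprc, Cx3cr1 and Emr1 had under 10 counts in at least 1 library, and which part of their intervals came from depth was not tested.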
